A study of Mus musculus with 8 samples.

Results

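The genes described here encode the nuclear subunits of the 5 complexes of oxidative phosphorylation, followed in the peripheral blood of mice with and without restraint stress. They were taken by symbol, as Ndufa, Ndufb, Ndufc, Ndufs or Ndufv with a number for complex I, Sdha to Sdhd for complex II, Uqcr for complex III, Cox4 to Cox8 for complex IV and Atp5 for complex V. The rule matched 84 of the 21878 symbols in the count table, 37 for complex I, 4 for complex II, 8 for complex III, 18 for complex IV and 17 for complex V. Of these, 77 had at least 10 counts in at least 4 samples and were tested, among 11718 tested genes in all. RNA was sequenced from blood of wild-type female C57BL/6 mice aged 6 to 8 weeks. The stress group (n = 4) was held for 6 hours in ventilated tubes, and the control group (n = 4) consisted of littermates in their cage. Neither group had food or water in that time, so the groups differ by restraint and not by fasting. The labels name 8 samples without saying that each came from a separate animal, so the p-values measure the spread between these samples.

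Complex I takes electrons from NADH and complex II from succinate. Complex III passes them through cytochrome c to complex IV, cytochrome c oxidase, which reduces oxygen, and complex V, the ATP synthase, uses the proton gradient that complexes I, III and IV build. Complex II is encoded in the nucleus alone, whereas the others combine nuclear subunits with a few made from mitochondrial DNA. In blood, leukocytes, platelets and reticulocytes carry mitochondria, and red cells lose them when they mature. The subunits encoded by mitochondrial DNA were not analysed here.

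The promoters of a few of these genes are shown because the genes behaved differently in the samples. Cox5a had the smallest adjusted p, Cox6a1 the complex IV gene with the highest level per length, Atp5l a member that rose, and Atp5sl the member that fell. Each line runs 5′ to 3′ from 250 bases before to 50 bases after the RefSeq start, and capitals mark matches to the 3 motifs searched on both strands. The motifs were GCGCATGCG for NRF1, CCGGAAG for ETS factors and AAGATGGCG for YY1. An ETS and a YY1 match can share the letters AAG, and the NRF1 motif can match both strands of nearly the same bases, as it does in Cox6a1.
Cox5a: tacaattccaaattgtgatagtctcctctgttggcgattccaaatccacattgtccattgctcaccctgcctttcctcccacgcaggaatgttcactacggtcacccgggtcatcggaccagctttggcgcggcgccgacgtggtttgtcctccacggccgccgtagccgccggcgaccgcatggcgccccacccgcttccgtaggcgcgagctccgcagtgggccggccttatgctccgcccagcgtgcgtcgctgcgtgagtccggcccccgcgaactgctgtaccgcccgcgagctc
Cox6a1: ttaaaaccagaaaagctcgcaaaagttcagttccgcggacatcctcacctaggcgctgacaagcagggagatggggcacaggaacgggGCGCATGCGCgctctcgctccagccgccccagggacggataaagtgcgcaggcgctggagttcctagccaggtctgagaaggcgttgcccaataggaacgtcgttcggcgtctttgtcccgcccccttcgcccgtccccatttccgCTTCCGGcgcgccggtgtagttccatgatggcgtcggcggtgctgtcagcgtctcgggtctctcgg
Atp5l: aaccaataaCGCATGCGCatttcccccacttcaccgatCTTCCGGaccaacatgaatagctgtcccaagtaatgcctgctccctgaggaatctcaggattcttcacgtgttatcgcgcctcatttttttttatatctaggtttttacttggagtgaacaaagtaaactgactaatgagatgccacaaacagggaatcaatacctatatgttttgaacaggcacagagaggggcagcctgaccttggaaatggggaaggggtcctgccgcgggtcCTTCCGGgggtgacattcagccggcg
Atp5sl: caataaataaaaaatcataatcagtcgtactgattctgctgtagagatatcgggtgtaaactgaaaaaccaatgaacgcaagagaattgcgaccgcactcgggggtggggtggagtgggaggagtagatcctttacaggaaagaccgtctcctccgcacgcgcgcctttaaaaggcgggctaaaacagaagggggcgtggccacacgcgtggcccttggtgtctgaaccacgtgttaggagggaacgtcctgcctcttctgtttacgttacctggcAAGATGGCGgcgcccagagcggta
In GRCm38.p6 these windows are chr9:57520982-57521281 on the plus strand for Cox5a, chr5:115348909-115349208 on the minus strand for Cox6a1, chr9:44920693-44920992 on the minus strand for Atp5l and chr7:25619164-25619463 on the plus strand for Atp5sl. Another RefSeq start was listed for Atp5sl, with the window chr7:25619243-25619542, and that window also holds a YY1 match. A RefSeq promoter was given for 66 of the 77 tested members. A gene was counted where any of its promoters held the motif. The NRF1 motif was in 8 of the 66 (12.1%), against 4.22% of the tested genes with a promoter and 1.95% of all 27025 genes with one. The YY1 motif was also in 8 (12.1%), against 3.75% and 1.64%. The ETS motif was in 16 (24.2%), against 20.8% and 9.93%. Among the 11 of the 13 rising members described below that had a promoter, the NRF1 motif was in 1 (Atp5l), the YY1 motif in 2 (Ndufs4 and Atp5j2) and the ETS motif in 6 (Uqcrh, Cox6b1, Cox8a, Atp5e, Atp5h and Atp5l). A match is a description of the letters and not a binding site.

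The libraries held 31471145 to 39014775 counts in the control group and 25978683 to 29655725 in the stress group. The haemoglobin genes took 51.89% to 63.81% of the control counts and 61.23% to 75.55% of the stress counts, which left 6352711 other counts in stress replicate 3, the fewest of all. The level of a gene is given below as counts per 1000000 (CPM) of a library size scaled with TMM factors, which were 1.006 to 1.774 for control and 0.507 to 1.10 for stress libraries. On this scale the tested genes as a whole had a median log2 fold change of -0.02, and with total counts alone it was -0.82. Genes are called higher or lower against a log2 fold change of 0 on the scale named, not against these medians. Values with total counts are given beside most of them. In whole blood, fewer cells of a type and less RNA per cell cannot be told apart. The summed level of 14 platelet markers was 1803 to 2674 CPM in control samples and 4107 to 4789 CPM in stress samples, and 14 of the 14 passed as higher. Of 13 tested neutrophil markers 10 passed as higher, with sums of 200.9 to 391.6 CPM and 612.9 to 911.6 CPM. Of 10 monocyte markers 7 passed as higher, with sums of 369.5 to 497.2 CPM and 730.4 to 1262 CPM. Of 14 tested erythroid and reticulocyte markers 1 passed as higher, with a median of 0.97 (log2) and sums of 12330 to 34260 CPM and 27390 to 58060 CPM. Of 11 B cell markers 7 passed as lower, of 12 T cell markers none passed, and of 10 NK cell markers 1 passed as lower. Over all tested genes 10.4% passed as higher and 3.69% as lower. The share of the erythroid and reticulocyte markers that passed as higher was 7.14%, although 13 of the 14 had a log2 fold change above 0. Without adjustment 11 of the 14 had an edgeR p below 0.05 as higher, against 2129 of all 11718 tested genes. With total counts the median of these markers was 0.21. Klf1, a defining erythroid factor, had 0 to 21 counts, and Camp, a neutrophil granule gene, 0 to 8. The part of these cell types in the results below was not tested.

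Stressed blood had higher transcript levels of part of the oxidative phosphorylation genes on the TMM scale, mostly small subunits of complexes IV, V and III. Of the 77 tested members, 67 had a log2 fold change above 0 (87%, against 47.1% of all tested genes), with a median of 0.36. In edgeR's quasi-likelihood test at a threshold of 0.05, adjusted after Benjamini and Hochberg over all tested genes, 13 members rose (16.9%, against 10.4% of all tested genes) and 1 fell (1.30%, against 3.69%). The other 63 did not pass, although without adjustment 36 had a p below 0.05 as higher and 1 as lower. No member met the thresholds of the study, a change of more than 1 on the log2 scale in either direction with an adjusted p under 0.01, which 1.71% of all tested genes met. DESeq2 placed 2 members past those thresholds, Ndufa1 and Cox6c. Each stress sample was above each control sample for 14 members (18.2%, against 11.1% of all tested genes), and below for 1 (1.30%, against 9.87%). Leaving out 1 library moved the number that rose from 13 to 2 without control replicate 2, to 5 without control replicate 3 and to 6 without stress replicate 2 or stress replicate 3. It was 9 without control replicate 1, 17 without stress replicate 1, 22 without control replicate 4 and 27 without stress replicate 4.

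With total counts in place of TMM the direction was the opposite. The median of the 77 members was then -0.48, 0 members rose (against 0.444% of all tested genes) and 13 fell (against 49.6%). Only 8 of the 77 were above 0 then. The median of the members thus lay above that of all genes on both scales, and its sign depended on the scale. The counts assigned to all tested members made up 0.418% to 0.454% of the non-haemoglobin counts in control samples and 0.427% to 0.536% in stress samples, and the groups overlapped. Of those counts, complex V gave the most in each library and complex II the fewest.

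**Figure D1:**
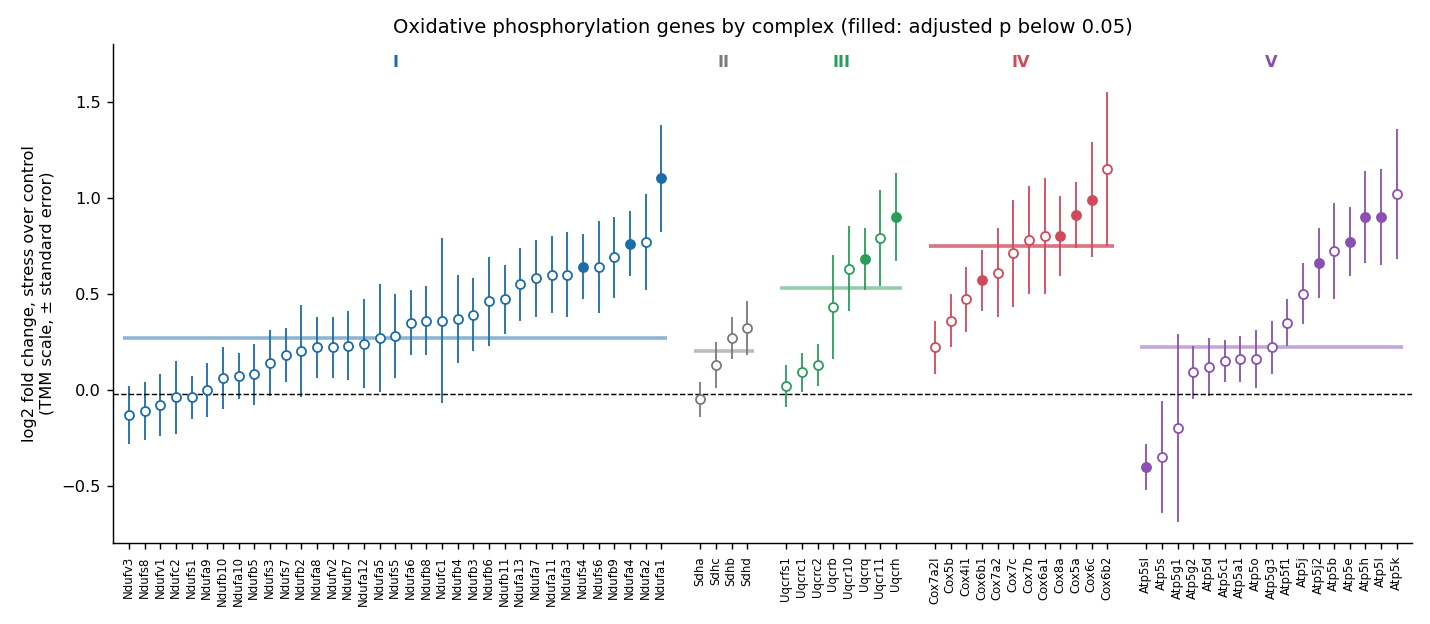
Log2 fold change of 76 of the 77 tested members in stress over control, on the vertical axis, with genes along the horizontal axis by complex. Bars are the standard error (edgeR, n = 4 against 4), filled points passed an adjusted p of 0.05, thick lines are the complex medians and the dashed line is the median of all tested genes (-0.02). On the TMM scale shown, complex IV has a median of 0.75 and complex II of 0.20. With total counts alone, the medians were -0.10 and -0.62.

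The median change differed between the complexes. The median log2 fold change was 0.75 for complex IV, 0.53 for complex III, 0.27 for complex I, 0.22 for complex V and 0.20 for complex II on the TMM scale. With total counts alone the medians were -0.10, -0.34, -0.53, -0.61 and -0.62, so their order was kept while each sign turned. Without stress replicate 3 the medians were 0.48 for complex IV, 0.34 for complex III, 0.16 for complex I, 0.13 for complex V and 0.13 for complex II, and that of all members was 0.22. Among the members that rose, 4 were of 12 tested in complex IV (33.3%), 2 of 8 in complex III (25.0%), 4 of 17 in complex V (23.5%), 3 of 36 in complex I (8.33%) and 0 of 4 in complex II. All 12 tested genes of complex IV and all 8 of complex III had values above 0. These counts and medians describe the lists, and no test was made of the difference between complexes.

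The distance between complexes can also be read within each sample, where library scaling almost cancels. The mean log2 CPM of complex IV genes minus that of complex I genes was 1.70, 1.53, 1.36 and 2.04 in control replicates 1 to 4. In stress replicates 1 to 4 it was 1.99, 2.12, 2.24 and 1.83. Stress replicate 3 was highest and control replicate 3 lowest, and the groups overlapped because control replicate 4 lay above stress replicates 1 and 4. The corresponding difference of complex V and complex I was 1.26 to 1.45 in control samples and 1.36 to 1.45 in stress samples, and that of complex III and complex I was 0.66 to 0.85 and 0.79 to 1.01. Complex II minus complex I was 1.33 to 1.54 in control samples and 1.17 to 1.45 in stress samples. All 4 differences overlapped between the groups.

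The smallest adjusted p of all members was in complex IV. Cox5a, a matrix-facing subunit, measured 26, 23.6, 24.4 and 30.8 CPM in control replicates 1 to 4 and 37.5, 47.1, 68.8 and 44.0 CPM in stress replicates 1 to 4. Stress replicate 3 was the highest and the groups did not overlap. The log2 fold change was 0.91 ± 0.17 (SE) (edgeR, adjusted p = 0.00379), against 0.08 with total counts. Cox5a passed in each of the 8 fits that left out 1 sample, with 0.73 to 1.05. Cox5b, another nuclear subunit, measured 8.56 ± 0.671 (SD, n = 4) and 11.1 ± 2.27 CPM (SD, n = 4), with a log2 fold change of 0.36 and an adjusted p of 0.0983 by edgeR, and -0.46 with total counts. The ratio of Cox5a to Cox5b counts, which no scaling changes, was 3.05, 3.09, 2.73 and 3.36 in control replicates 1 to 4. It was 3.65, 4.79, 4.74 and 4.46 in stress replicates 1 to 4, and these ranges did not overlap. The pair was chosen after the data were seen, with the member of smallest adjusted p as numerator. Cox5a lies at chr9:57521274-57532426 on the plus strand of GRCm38 and shares 269 exonic bases with Gm26631, an RNA gene on the other strand. Whether the counting used strand is not given in the sources used here.

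Cox6a1, a small membrane subunit and the broadly expressed form of its isoform pair, had the highest level per length in complex IV. It measured 67.8, 49.2, 38.0 and 90.1 CPM in control replicates 1 to 4 and 94.0, 98.6, 169 and 66.0 CPM in stress replicates 1 to 4. Stress replicate 4 lay among the control samples, and the spread within each group was wide. The log2 fold change of 0.80 ± 0.30 did not pass (edgeR, adjusted p = 0.0909), and it was -0.02 with total counts. Its raw counts were 2497, 2542, 2633 and 2859 in control replicates 1 to 4 and 2108, 2127, 2228 and 2061 in stress replicates 1 to 4. All stress counts were below all control counts, in libraries that were also smaller in total.

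Of the complex IV genes that rose, Cox6c, Cox8a and Cox6b1 also overlapped between the groups. Cox6c, a single-span subunit, measured 28.1, 22.1, 17.8 and 39.7 CPM in control replicates 1 to 4 and 41.1, 53.9, 86.5 and 32.4 CPM in stress replicates 1 to 4. The groups overlapped between control replicate 4 and stress replicate 4, although the log2 fold change of 0.99 ± 0.30 passed (edgeR, adjusted p = 0.0465; 0.15 with total counts). Cox6c shares 250 exonic bases with Vps13b on the other strand. Cox8a, the broadly expressed form of a small membrane subunit, measured 41.1, 36.3, 32.5 and 54.8 CPM in control replicates 1 to 4 and 63.4, 69.7, 103 and 51.7 CPM in stress replicates 1 to 4. It rose by a log2 fold change of 0.80 ± 0.21 on the TMM scale (edgeR, adjusted p = 0.0278) and stood at -0.03 with total counts, with control replicate 4 above stress replicate 4. Cox6b1, which faces the intermembrane space, measured 8.48, 10.2, 9.10 and 12.2 CPM in control replicates 1 to 4 and 11.9, 15.6, 19.7 and 12.6 CPM in stress replicates 1 to 4. It rose by 0.57 ± 0.16 (edgeR, adjusted p = 0.0348), from 9.98 ± 1.63 to 14.9 ± 3.54 CPM (SD, n = 4 each), and stood at -0.25 with total counts. Cox6b1, Cox6c and Cox8a each passed in 3 of the 8 fits that left out 1 sample.

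In complex IV, the isoforms known mainly from other tissues were almost unread. Cox6a2, Cox7a1 and Cox8b are the forms of heart and skeletal muscle, Cox4i2 is known from lung, and Cox7b2 and Cox8c from testis. Cox4i2 had at most 4 counts in a library, Cox6a2 at most 12, Cox7a1 1 to 13 and Cox8b and Cox8c at most 1, while Cox7b2 had 0 in all 8 libraries. These 6 and Ndufa4l2 of complex I, with at most 2 counts, were the 7 members that could not be tested. Cox4i1, the common form of the largest nuclear subunit, measured 38.5, 39.3, 42.1 and 51.6 CPM in control replicates 1 to 4 and 53.3, 57.5, 82.4 and 44.2 CPM in stress replicates 1 to 4, with a log2 fold change of 0.47 that did not pass (edgeR, adjusted p = 0.0833) and that was -0.39 with total counts. Control replicate 4 lay above stress replicate 4. Cox7a2 measured 9.32, 7.41, 6.14 and 12.5 CPM in control replicates 1 to 4 and 11.8, 12, 19.4 and 11 CPM in stress replicates 1 to 4, with a log2 fold change of 0.61 (edgeR, adjusted p = 0.0984), and -0.18 with total counts. Its relative Cox7a2l, a factor that joins complexes III and IV, measured 64.1, 72.9, 74.1 and 73.2 CPM in control replicates 1 to 4 and 72.8, 88.2, 102 and 67.6 CPM in stress replicates 1 to 4. Cox7a2l had the smallest value of the complex, 0.22 ± 0.14 (edgeR, adjusted p = 0.297), and -0.64 with total counts.

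Cox6b2, the form of Cox6b known from testis, was read at a level near that of Cox6b1. It measured 6.41, 4.89, 2.62 and 12 CPM in control replicates 1 to 4 and 11, 15.1, 21.9 and 8.96 CPM in stress replicates 1 to 4. Control replicate 4 lay above stress replicates 1 and 4, and the log2 fold change of 1.15 ± 0.40 did not pass (edgeR, adjusted p = 0.0738; 0.38 with total counts). The ratio of Cox6b2 to Cox6b1 counts was 0.756, 0.482, 0.287 and 0.982 in control replicates 1 to 4 and 0.929, 0.964, 1.12 and 0.709 in stress replicates 1 to 4. Together with Ndufa1 and Atp5k, Cox6b2 was among the 3 members with a log2 fold change above 1 (3.90%, against 4.42% of all tested genes).

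Complex III was divided between its small subunits and its large ones. The 5 small subunits had a median log2 fold change of 0.68 with 2 that rose, and the Rieske and core proteins (Uqcrfs1, Uqcrc1 and Uqcrc2) had 0.02, 0.09 and 0.13, none of which passed. With total counts the medians of these 2 groups were -0.12 and -0.72, and Uqcrfs1 passed as lower at -0.79 (edgeR, adjusted p = 0.0444). Uqcrh, the hinge protein that contacts cytochrome c1, measured 29.1, 21.6, 21.1 and 35.3 CPM in control replicates 1 to 4 and 40.3, 54.6, 71.0 and 34.4 CPM in stress replicates 1 to 4. It rose by 0.90 ± 0.23 (edgeR, adjusted p = 0.0230; 0.07 with total counts), with stress replicate 4 just under control replicate 4. Uqcrq, a small membrane subunit, measured 6.79, 4.68, 5.79 and 6.81 CPM in control replicates 1 to 4 and 10.5, 8.44, 11.5 and 8.29 CPM in stress replicates 1 to 4. Its groups did not overlap, and it rose by 0.68 ± 0.16 on the TMM scale (edgeR, adjusted p = 0.0135) against -0.12 with total counts, passing in 7 of 8 fits that left out 1 sample. Uqcr11, another small membrane subunit, measured 3.07, 3.46, 3.06 and 4.04 CPM in control replicates 1 to 4 and 4.37, 6.07, 9.79 and 3.87 CPM in stress replicates 1 to 4, where stress replicate 4 fell under control replicate 4. Uqcr11, Uqcr10 and Uqcrb had log2 fold changes of 0.79, 0.63 and 0.43 without passing, and -0.09, -0.20 and -0.47 with total counts. Within each sample, the mean log2 CPM of the small subunits minus that of the Rieske and core proteins was -1.62, -1.99, -1.96 and -1.73 in control replicates 1 to 4 and -1.49, -1.10, -0.90 and -1.65 in stress replicates 1 to 4. Stress replicate 4 lay below control replicate 1, so the groups overlapped. Cyc1, the cytochrome c1 subunit that the symbol rule does not reach, had -0.06, and Cycs, cytochrome c itself, had 0.02.

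Complex I held the largest number of members, and the 8.33% of them that rose stand beside 10.4% of all tested genes. Its 7 core subunits, which carry the flavin and iron-sulfur centres, had a median log2 fold change of 0.00 with none that passed, and its 29 accessory subunits had 0.36 with 3 that rose. With total counts these medians were -0.80 and -0.47. Ndufs1, the large iron-sulfur subunit, measured 15.1 ± 0.803 and 14.7 ± 1.84 CPM (SD, n = 4 each). Ndufv3, Ndufs8 and Ndufv1 had the lowest log2 fold changes, -0.13, -0.11 and -0.08, none of which passed. Ndufv3, an accessory subunit, measured 5.46, 4.99, 5.82 and 4.79 CPM in control replicates 1 to 4 and 5.17, 5.05, 5.31 and 3.94 CPM in stress replicates 1 to 4. Ndufs8, an iron-sulfur subunit, measured 8.09, 8.07, 8.11 and 9.05 CPM in control replicates 1 to 4 and 7.27, 6.59, 10.6 and 6.85 CPM in stress replicates 1 to 4. Ndufv1, which binds NADH and the flavin, measured 8.09, 10.1, 11.8 and 10.1 CPM in control replicates 1 to 4 and 9.32, 7.05, 11.8 and 9.99 CPM in stress replicates 1 to 4. On the TMM scale the groups overlapped for all 3. With total counts Ndufs1, Ndufv3, Ndufs8 and Ndufv1 stood at -0.84, -0.96, -0.93 and -0.91. Each then passed as lower (edgeR, adjusted p = 0.0347, 0.0236, 0.0229 and 0.0251). The mean log2 CPM of the accessory subunits minus that of the core subunits was -1.04, -1.11, -1.28 and -1.08 in control replicates 1 to 4. In stress replicates 1 to 4 it was -0.83, -0.70, -0.73 and -1.03. The groups were separated only barely, with -1.03 in stress replicate 4 against -1.04 in control replicate 1. The accessory set and its 3 members that rose include Ndufa4, described below as a subunit of complex IV. The difference was not computed without Ndufa4, so whether the groups stay apart then is not known. Ndufab1, the acyl carrier protein outside the symbol rule, had -0.02.

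Ndufa4, grouped here with complex I by its symbol, is a small subunit known to belong to complex IV. It measured 17.8, 17.2, 14.0 and 19.0 CPM in control replicates 1 to 4 and 23.1, 27.0, 41.1 and 24.8 CPM in stress replicates 1 to 4, without overlap. It rose by 0.76 ± 0.17 on the TMM scale (edgeR, adjusted p = 0.0107) and stood at -0.06 with total counts. Ndufa4 and Cox5a were the members that passed in 8 of 8 fits that left out 1 sample. With Ndufa4 counted in complex IV and Cox7a2l left out, 5 of 12 genes of complex IV rose and the median was 0.77 (-0.05 with total counts). The median of complex I without Ndufa4 stayed at 0.27 (-0.54 with total counts), with 2 of 35 that rose.

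Ndufa1, a small membrane subunit needed to build complex I, had the largest change among the members that passed. It measured 6.57, 6.29, 4.06 and 9.96 CPM in control replicates 1 to 4 and 11.3, 13.5, 22.2 and 10.8 CPM in stress replicates 1 to 4. The groups did not overlap, and it rose by 1.10 ± 0.28 (edgeR, adjusted p = 0.0224; 0.30 with total counts). The ratio of Ndufa1 to Ndufs1 counts was 0.436, 0.443, 0.272 and 0.617 in control replicates 1 to 4. It was 0.760, 1.04, 1.29 and 0.784 in stress replicates 1 to 4, also without overlap. This pair was chosen after the data were seen. Ndufs1 had a log2 fold change of -0.04 on the TMM scale, so the ratio largely repeats the Ndufa1 values. Ndufs4, an accessory subunit of the NADH-oxidising arm, measured 8.04, 7.22, 6.72 and 7.50 CPM in control replicates 1 to 4 and 9.68, 9.88, 16.8 and 10 CPM in stress replicates 1 to 4. It rose by 0.64 ± 0.17 on the TMM scale (edgeR, adjusted p = 0.0257) and stood at -0.19 with total counts, and stress replicate 3 stood well above the other 3. Ndufa1 passed in 5 and Ndufs4 in 6 of the 8 fits that left out 1 sample.

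On the TMM scale, complex II had no member that passed and narrow ranges over the samples. Sdha, the flavoprotein that oxidises succinate, measured 58.2, 53.6, 54.8 and 53.0 CPM in control replicates 1 to 4 and 54.0, 51.2, 54.3 and 52.0 CPM in stress replicates 1 to 4, with a log2 fold change of -0.05 ± 0.09 (edgeR, adjusted p = 0.738). Its 8 values lay within 1.13-fold of each other on this scale, the narrowest range of the 77 members. Per total count the range was 3.53-fold. With total counts Sdha stood at -0.85 and passed as lower (edgeR, adjusted p = 0.0307). Sdhb, the iron-sulfur subunit, measured 11.8, 11.9, 11.9 and 11.7 CPM in control replicates 1 to 4 and 13.8, 12.4, 17.2 and 14.0 CPM in stress replicates 1 to 4, without overlap. Its value of 0.27 ± 0.11 did not pass (edgeR, adjusted p = 0.124) and was -0.54 with total counts. Sdhc, a membrane anchor, measured 9.15, 9.56, 9.71 and 8.61 CPM in control replicates 1 to 4 and 10.4, 8.86, 11.8 and 9.67 CPM in stress replicates 1 to 4. Sdhd, the other anchor, measured 12, 10.6, 9.82 and 9.90 CPM in control replicates 1 to 4 and 12, 12.1, 17.7 and 11.4 CPM in stress replicates 1 to 4, and both genes overlapped between the groups. Sdhc and Sdhd had log2 fold changes of 0.13 (adjusted p = 0.491) and 0.32 (adjusted p = 0.147) by edgeR, and -0.69 and -0.51 with total counts.

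Complex V was divided between its parts. The 3 small membrane subunits had a median log2 fold change of 0.90 with 2 that rose, the 4 peripheral stalk subunits 0.42 with 1 that rose, the 5 subunits of the F1 head 0.16 with 1 that rose and the 3 genes for the c ring 0.09 with none. With total counts these medians were 0.09, -0.41, -0.66 and -0.74, in that order. Atp5e, the small epsilon subunit of the F1 central stalk, measured 17.1, 14.1, 14.1 and 20.3 CPM in control replicates 1 to 4 and 22.7, 27.5, 39.1 and 23.0 CPM in stress replicates 1 to 4, without overlap. It rose by 0.77 ± 0.18 on the TMM scale (edgeR, adjusted p = 0.0141) and stood at -0.05 with total counts, and it passed in 7 of 8 fits that left out 1 sample. Atp5j2, the membrane subunit f, measured 10.3, 9.44, 8.08 and 10.2 CPM in control replicates 1 to 4 and 13.9, 15.2, 21.1 and 10.3 CPM in stress replicates 1 to 4, where stress replicate 4 was level with control replicate 1. It rose by 0.66 ± 0.18 on the TMM scale (edgeR, adjusted p = 0.0290) and stood at -0.19 with total counts. Atp5h, subunit d of the peripheral stalk, and Atp5l, the membrane subunit g, each rose by 0.90 (edgeR, adjusted p = 0.0313 and 0.0345), and stood at 0.05 and 0.09 with total counts. Atp5h measured 42.5, 33.8, 30.6 and 51.3 CPM in control replicates 1 to 4 and 65.9, 69.2, 115 and 46.9 CPM in stress replicates 1 to 4. Atp5l measured 26.7, 17.9, 15.8 and 31 CPM in control replicates 1 to 4 and 37.6, 41.4, 62.5 and 29.1 CPM in stress replicates 1 to 4. Both overlapped between the groups, with control replicate 4 above stress replicate 4, and each passed in 4 of 8 fits that left out 1 sample. Atp5l shares 133 exonic bases with an antisense gene, and the annotation holds a pseudogene named for it, as for Atp5c1, Atp5k and Uqcrh.

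The paired subunits of the F1 head had unlike values. Atp5b, the catalytic beta subunit, was the most abundant member per length, at 135 CPM per kilobase in control samples and 223 in stress samples. It measured 293, 217, 173 and 354 CPM in control replicates 1 to 4 and 431, 441, 559 and 279 CPM in stress replicates 1 to 4, with a log2 fold change of 0.72 ± 0.25 that did not pass (edgeR, adjusted p = 0.0662) and that was -0.08 with total counts. Atp5a1, the alpha subunit that stands beside it in equal number, measured 112 ± 4.88 and 125 ± 13 CPM (SD, n = 4 each), with 0.16 ± 0.12 (edgeR, adjusted p = 0.373) and -0.66 with total counts. The ratio of Atp5b to Atp5a1 counts was 2.75, 1.98, 1.49 and 3.06 in control replicates 1 to 4 and 3.24, 3.62, 4.05 and 2.56 in stress replicates 1 to 4. Stress replicate 4 fell among the control samples.

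The member that fell is not a subunit of the ATP synthase. Atp5sl, at chr7:25619414-25625551 on the plus strand of GRCm38, is named Dmac2 in the annotation and is known as an assembly factor for the membrane arm of complex I. It measured 26.5, 25.7, 25.5 and 25.1 CPM in control replicates 1 to 4 and 15.7, 17.6, 21.8 and 23.0 CPM in stress replicates 1 to 4, without overlap. It fell by 0.40 on the log2 scale with an SE of 0.12 (edgeR, adjusted p = 0.0458; -1.17 with total counts), and passed in 2 of 8 fits that left out 1 sample. Atp5s, likewise a protein outside the core of the enzyme, measured 1.22, 1.33, 1.20 and 1.48 CPM in control replicates 1 to 4 and 0.669, 1.30, 1.21 and 0.960 CPM in stress replicates 1 to 4, with a log2 fold change of -0.35 (adjusted p = 0.432, edgeR). With total counts Atp5s stood at -1.15 and passed as lower (edgeR, adjusted p = 0.0343). Without Atp5sl and Atp5s the median of complex V was 0.35 (-0.48 with total counts). Atp5g1, which encodes the same mature c subunit as Atp5g2 and Atp5g3, measured 1.20, 4.43, 1.36 and 1.26 CPM in control replicates 1 to 4 and 0.713, 2.64, 1.52 and 2.30 CPM in stress replicates 1 to 4, and its log2 fold change of -0.20 turned to 0.51 without control replicate 2.

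**Figure D2:**
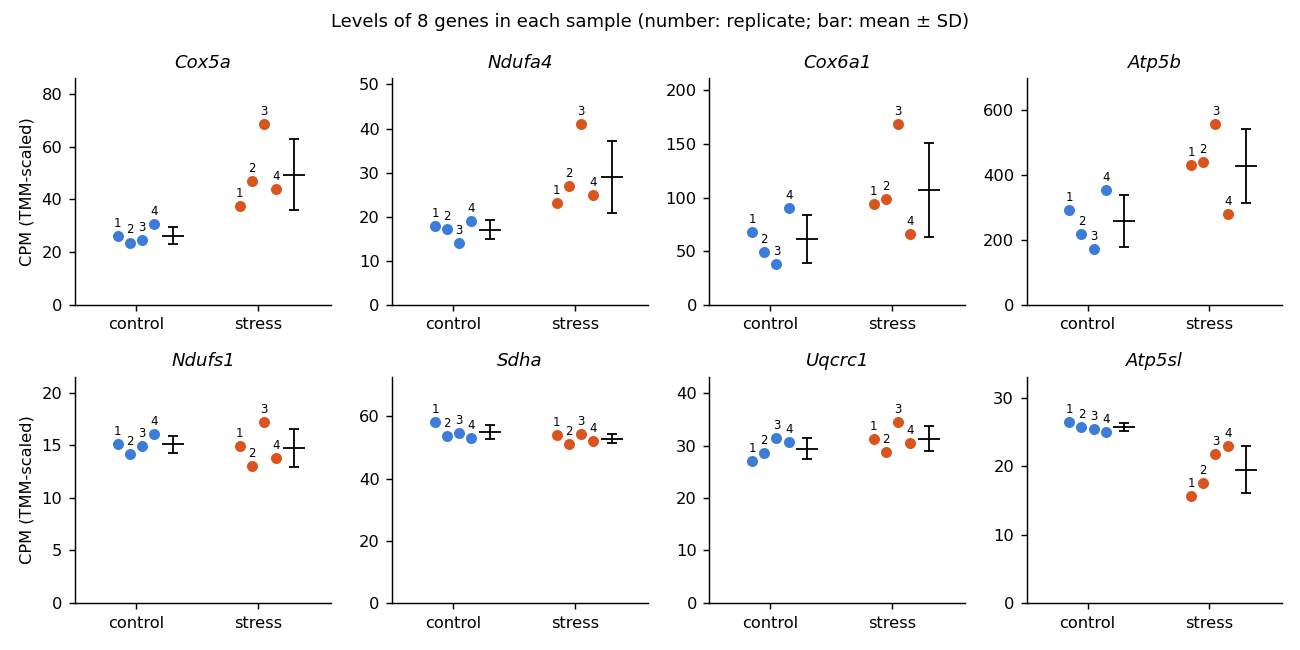
CPM on the TMM scale (vertical axis, from 0) of 8 genes in each control and stress sample, with the replicate number beside each point and the mean ± SD (n = 4) as a bar. Cox5a, Ndufa4 and Atp5sl do not overlap between groups, Cox6a1 and Atp5b do, and Ndufs1, Sdha and Uqcrc1 stay within narrow ranges. With total counts, Cox5a stood at 0.08 (log2 fold change), Ndufa4 at -0.06, Atp5sl at -1.17, Ndufs1 at -0.84, Sdha at -0.85 and Uqcrc1 at -0.72.

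The samples within a group lay in the order of their haemoglobin share for many of these genes. In the control group that share was 51.89% in replicate 3, 57.22% in replicate 2, 61.07% in replicate 1 and 63.81% in replicate 4. In the stress group it was 61.23% in replicate 4, 66.50% in replicate 1, 70.40% in replicate 2 and 75.55% in replicate 3. The CPM of 14 of the 77 members (18.2%) rose in exactly this order in both groups, as did 150 of the 11718 tested genes (1.28%). Of the 14, 6 were of the 12 tested genes of complex IV (Cox6a1, Cox6b2, Cox6c, Cox7a2, Cox7b and Cox8a), 3 of complex I, 2 of complex III and 3 of complex V. The TMM factors stood in the reverse order in both groups, so a gene with steady counts takes this order on the CPM scale. Quantities that scaling cannot set had the same order too, namely the ratios of Cox6b2 to Cox6b1, of Atp5b to Atp5a1 and of Uqcrh to Uqcrc1. Cox6b2, Atp5b and Uqcrh are themselves among the 14, so these ratios are not separate from that count. Atp5a1 and Uqcrc1 ranged only 1.30-fold and 1.27-fold on the TMM scale, so their ratios largely repeat the order of the numerators. The difference of complex IV and complex I had the order of the haemoglobin share as well. The ratios of Cox5a to Cox5b, of Ndufa1 to Ndufs1 and of Cox7a2 to Cox7a2l did not. Neither did the differences of complexes V, III and II from complex I, nor those between the parts of complex I and of complex III. What part the haemoglobin share had in these differences was not tested.

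**Figure D3:**
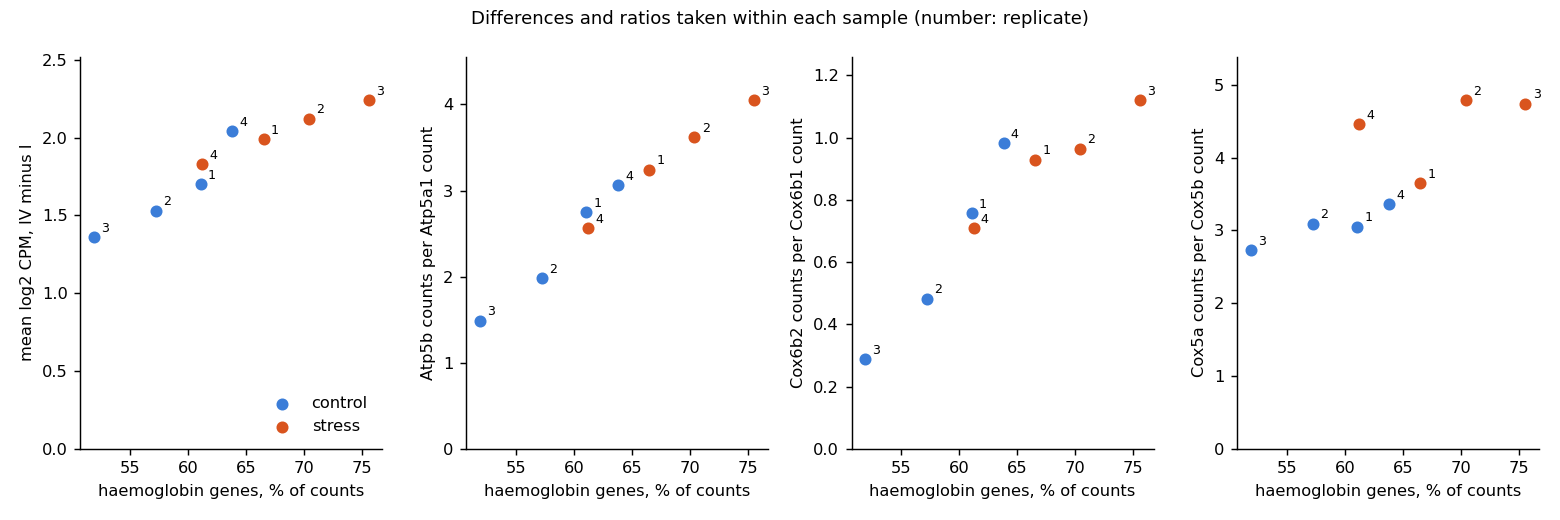
Share of counts in haemoglobin genes (horizontal axis, percent) against the difference of mean log2 CPM of complex IV and complex I genes and the count ratios Atp5b per Atp5a1, Cox6b2 per Cox6b1 and Cox5a per Cox5b (vertical axes, from 0), in 4 control and 4 stress samples numbered by replicate. In the first 3 panels the samples of each group lie in the order of their haemoglobin share and the groups overlap. In the last panel the stress samples (3.65 to 4.79) all lie above the control samples (2.73 to 3.36). The count ratios were chosen after the data were seen.

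The members also differed in the scale on which they were steadiest over the 8 libraries. For each gene with counts in all libraries, the highest value was divided by the lowest on 3 scales, as TMM-scaled CPM, per total count and per haemoglobin count. The range was narrowest as TMM-scaled CPM for 86.4% of 11545 tested genes, and for 43 of the 77 members (55.8%). It was narrowest per total count for 31 members (40.3%, against 11% of the tested genes) and per haemoglobin count for 3 (3.90%, against 2.62%). All 4 genes of complex II and 24 of 36 of complex I were steadiest as TMM-scaled CPM, as were 2 of 12 in complex IV, Cox5b and Cox7a2l. Cox6a1 is an example, with a range of 4.45-fold as TMM-scaled CPM and 1.34-fold per total count. Per 1000000 haemoglobin counts it had 130, 127, 130 and 142 counts in control replicates 1 to 4 and 113, 102, 114 and 119 in stress replicates 1 to 4. Ndufs1 had 28.9, 36.5, 51.0 and 25.5 counts per 1000000 haemoglobin counts in the control group and 17.9, 13.4, 11.6 and 24.8 in the stress group, a range of 4.41-fold, against 1.33-fold as TMM-scaled CPM.

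Transcript length ran along with the change. The length was the median over transcripts marked in GENCODE as principal 1 by APPRIS, or the longest transcript where none was so marked. It was known for 76 of the tested members. The 46 members under 1000 bases had a median of 0.59 (log2) and 12 that rose (26.1%), and the 30 longer ones had 0.13 with 1 that rose, Ndufs4, and 1 that fell. Among all tested genes, the 709 under 1000 bases had a median of 0.25 with 17.1% that rose, and the 10899 longer ones -0.04 with 10%. With total counts the medians of the short and long members were -0.25 and -0.69. The complexes differ in length too, with medians of 631.5 bases in complex IV, 755 in complex III, 865.5 in complex I, 1062 in complex V and 2066 in complex II. An offset was also fitted that takes out each sample's trend of log2 CPM on length, relative to the mean of all samples. With it the median was 0.36 for complex IV, 0.18 for complex V, 0.13 for complex II, 0.12 for complex III and 0.07 for complex I. Of the 13 members that rose, 10 still passed with this offset. What part transcript length had in the result was not tested.

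**Figure D4:**
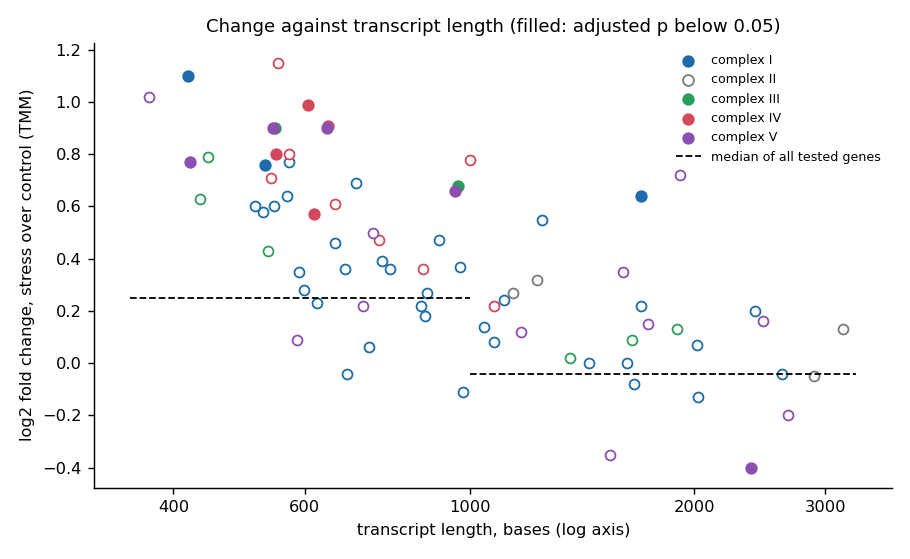
Log2 fold change on the TMM scale (vertical axis) against transcript length in bases (horizontal log axis) for 76 tested members, coloured by complex and filled where the adjusted p was below 0.05. Dashed lines are the medians of all tested genes under 1000 bases (0.25) and at or above it (-0.04). Members under 1000 bases have a median of 0.59 and longer members of 0.13. With total counts alone these 2 medians were -0.25 and -0.69.

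By level per length, the complexes overlapped widely. Control means of the 76 tested members with a length ran from 0.598 CPM per kilobase for Ndufb2 to 135 for Atp5b, with a median of 10.1. The medians were 28.4 in complex IV, 16.8 in complex V, 10.8 in complex III, 9.49 in complex II and 7.08 in complex I. After Atp5b came Cox6a1 (107 in control and 187 in stress samples, CPM per kilobase) and Cox8a (74.9 and 131). The highest in complex I was Ndufa4, in complex II Sdha and in complex III Uqcrh.

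Genes that build, regulate or feed these complexes were counted in the same way. Of 52 tested assembly factors outside the members, 4 rose (7.69%, against 10.4% of all tested genes), all of complex IV, and none fell. Their median was 0.05 (-0.74 with total counts). Atp5sl, the assembly factor that fell, was counted with the members and is not among these 52. Higd2a, which helps to join complex IV to complex III, had 0.63 (edgeR, adjusted p = 0.0169) and Coa3, which acts on the first mitochondrial subunit, 0.55 (edgeR, adjusted p = 0.0180), and both were lower with total counts, at -0.21 and -0.29. The other 2, named after their values were seen, were Coa5 and Pet100. None of the 17 enzymes of the tricarboxylic acid cycle passed, with a median of -0.03 (-0.83 with total counts). Of 17 regulators of mitochondrial biogenesis, 1 rose, the deacetylase Sirt3 at 0.51 (edgeR, adjusted p = 0.0446; -0.26 with total counts), while Nrf1, the factor whose motif was counted above, had 0.07 (-0.77 with total counts). Of 19 carriers and membrane proteins, 2 rose (10.5%), the outer membrane channels Vdac3 at 0.67 and Vdac1 at 0.52, which stood at -0.17 and -0.29 with total counts. Of 18 glycolysis genes 7 rose (38.9%, against the same 10.4%) and none fell, with a median of 0.38 (-0.38 with total counts). The leading ones were Tpi1, at 0.81 (edgeR, adjusted p = 0.00322), and Pkm, at 0.70 (edgeR, adjusted p = 0.00498), with -0.01 and -0.10 by total counts.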

How the data were processed

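RNA from peripheral blood of 4 control and 4 stress samples was analysed as 1 table of raw read counts per gene symbol, deposited by the authors without normalization. HISAT2, featureCounts and the mm10 build are listed in the submitters' processing notes, and versions, annotation, strand and handling of multiply mapped reads are not given in the sources used here. The members and gene lists were chosen with earlier results of these data known.

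Genes that reached 10 counts in 4 or more samples were fitted with edgeR 4.0.16 in R 4.3.3 (TMM, robust quasi-likelihood test, Benjamini-Hochberg over 11718 genes), since each result is a count and the groups have 4 samples. The study's own tool, DESeq2 1.42.0, served as an alternative, as did limma-voom (limma 3.58.1), other scalings, other count filters, a length offset (lowess, span 0.3), a replicate block and fits without 1 sample. Before log2, 0.5 was added to CPM for the complex means. Coordinates, overlaps and transcript lengths came from GENCODE M21 (GRCm38), which matched 83 of the 84 members, and promoters from RefSeq. The script was tested on simulated data. The values of 1 member of complex I are not reported here, and it stays in the counts and medians. Counting intervals are not given, since replicate spread is larger.

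Values per sample were given for up to 3 members in each direction with the smallest p in each complex, for tissue isoform pairs and for complex II. For pathway lists these were up to 2 genes in each direction. Other members given per sample (Cox6c, Atp5b, Atp5l and the ratios), the split at 1000 bases, the order by haemoglobin share and the comparison of scales were chosen after the data were seen, as were the roles within complexes.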

Additional observations from a re-analysis of the deposited data

Results flagged for a closer look

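In 7 of 64 groups of 4 values examined for the named members and the complex sums, 1 sample lay far from the other 3, where chance gives about 1 in 20. Stress replicate 3 did so 4 times. It had 16.8 CPM of Ndufs4, where the other stress samples had 9.68 to 10 CPM. It had 17.7 CPM of Sdhd against 11.4 to 12.1 CPM, and 19.4 CPM of Cox7a2 against 11 to 12 CPM. The summed CPM of complex I was 418 in it and 273 to 297 in the other stress samples. Control replicate 1 was low in Cox7a2l, at 64.1 CPM where the others had 72.9 to 74.1 CPM. Control replicate 2 was high in Atp5g1, at 4.43 CPM against 1.20 to 1.36 CPM, and control replicate 4 was high in Ndufs8, at 9.05 CPM against 8.07 to 8.11 CPM.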

How the results depend on the processing

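The count of members that rose (13 in the report) was 24 with DESeq2, 1 at an adjusted p below 0.01, 0 with total counts alone and 0 when scaled by haemoglobin counts, and 2 to 27 when 1 sample was left out. The count that fell (1) was 0 with RLE factors and at an adjusted p below 0.01, 13 with total counts and 17 with haemoglobin scaling, an alternative chosen after seeing the data, and 0 to 1 when 1 sample was left out. At the study's thresholds (0) it was 2 with DESeq2 and 0 to 4 when 1 sample was left out. The medians of complexes I to V and of all members were -0.53, -0.62, -0.34, -0.10, -0.61 and -0.48 with total counts, and -0.76, -0.85, -0.59, -0.32, -0.84 and -0.71 with haemoglobin scaling. With the length offset, those of complex I, III, IV and all members were 0.07, 0.12, 0.36 and 0.14. Of the 27 members named by rule, 15 turned to negative values with total counts: Ndufa4 -0.06, Ndufs4 -0.19, Sdhb -0.54, Sdhc -0.69, Sdhd -0.51, Uqcr11 -0.09, Uqcrq -0.12, Cox4i1 -0.39, Cox6a1 -0.02, Cox6b1 -0.25, Cox7a2 -0.18, Cox7a2l -0.64, Cox8a -0.03, Atp5e -0.05 and Atp5j2 -0.19. When 1 sample was left out, Ndufv1 ranged from -0.17 to 0.07 and Atp5g1 from -0.41 to 0.51. Same-numbered samples of the groups did not deviate together (correlations 0.0621, 0.000441, -0.0445 and -0.160), and with the replicate block 6 members rose and 0 fell. Upper-quartile factors, both other count filters, limma-voom and leaving out haemoglobin genes kept the count that rose within 1.5 times. The cause of these changes was not tested.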
